A study of Mus musculus with 18 samples.

Results

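The 10 genes described here are tied to the way sperm acquire the surface protein ADAM3, Dpep3 only because its protein binds that of Tex101. They are Tex101, Ly6k and Dpep3, which encode proteins held on the germ cell surface by a GPI anchor, Adam1a, Adam2 and Adam3 of the ADAM family, the testis chaperones Clgn, Calr3 and Pdilt, and the peptidase gene Ace. They were taken by name from a table of 22657 genes, and the group was built around Tex101, which was selected on its large fall in FPKM after busulfan in these samples. The busulfan values of the 10 genes are therefore given as a description with no test. The tests below concern alginate oligosaccharides (AOS), short sugar polymers cut from the alginate of brown seaweed, and genes outside the group.

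RNA-seq values came from 18 samples of cultured testes of ICR mice, 3 in each of 6 groups. Mice without busulfan gave A0, A10 and A50, whose medium held 0, 10 or 50 μg/mL AOS. Busulfan, a DNA-alkylating agent toxic to proliferating germ cells, was given at 40 μg per g of body weight to the mice behind B0, BA10 and BA50, whose medium held the same AOS concentrations. The labels name no engineered allele in any group. Mice received busulfan at 3 weeks of age, testes were collected after 2 more weeks, and cultures ran for 48 h. A whole testis in culture holds somatic and germ cells together and was cut off from the circulation, and the methods give 6 testes a treatment and 3 repeats without saying whether a sequenced sample pooled testes or was 1 such repeat, so that the p-values below measure only the spread between these samples. The series design text gives the AOS amounts per kg of body weight, and the μg/mL of the sample labels is used.

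TEX101 is made in the testis by germ cells and leaves the sperm surface before sperm mature. Mouse sperm that develop without TEX101 or LY6K lack ADAM3, pass poorly through the junction of uterus and oviduct and bind poorly to the egg coat. Calmegin (the product of Clgn), calsperin (Calr3) and PDILT fold ADAM proteins inside the endoplasmic reticulum, ADAM2 pairs with ADAM1A there, and the testis form of ACE is needed for normal ADAM3 on sperm and for the release of TEX101. DPEP3 is a membrane dipeptidase that binds TEX101.

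Promoter windows of 300 bases, from 250 bases before a RefSeq transcription start to 50 after it on build GRCm38.p6, were found for 6 of the 10 genes in 8 windows (Tex101, Dpep3, Adam1a and Pdilt with 1 each, Calr3 and Ace with 2 each). Ly6k, Adam2, Adam3 and Clgn had no entry. The 4 windows below are shown because Tex101 changed most, Dpep3 was the next lower member after busulfan, and Calr3 and the testis start of Ace belonged to the members with similar levels in B0 and A0. Letters in capitals mark CCAAT, which the factor NF-Y binds, TGACG, the core of the cAMP response element, and TGAGGTCA, a variant of that element, each read on either strand.
Tex101, chr7:24672001-24672300, minus strand: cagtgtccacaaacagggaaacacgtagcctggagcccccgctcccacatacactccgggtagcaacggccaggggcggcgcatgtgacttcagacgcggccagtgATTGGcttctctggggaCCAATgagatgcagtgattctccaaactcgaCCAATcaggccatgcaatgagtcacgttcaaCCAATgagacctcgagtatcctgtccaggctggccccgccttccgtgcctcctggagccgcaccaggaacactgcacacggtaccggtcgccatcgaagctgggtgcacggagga
Dpep3, chr8:105979370-105979669, minus strand: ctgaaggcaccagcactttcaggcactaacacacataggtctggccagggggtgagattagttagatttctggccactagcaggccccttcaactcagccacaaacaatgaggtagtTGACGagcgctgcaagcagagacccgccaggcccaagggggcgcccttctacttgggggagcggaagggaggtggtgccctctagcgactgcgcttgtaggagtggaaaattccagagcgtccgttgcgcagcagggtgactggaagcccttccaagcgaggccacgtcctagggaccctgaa
Calr3, chr8:72443729-72444028, minus strand: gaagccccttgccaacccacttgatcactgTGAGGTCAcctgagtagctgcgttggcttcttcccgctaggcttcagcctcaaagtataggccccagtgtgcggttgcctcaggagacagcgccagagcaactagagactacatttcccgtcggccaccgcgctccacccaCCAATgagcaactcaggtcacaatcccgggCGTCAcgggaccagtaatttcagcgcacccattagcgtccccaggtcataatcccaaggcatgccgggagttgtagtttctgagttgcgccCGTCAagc
Ace, start of the testis transcript, chr11:105974939-105975238, plus strand: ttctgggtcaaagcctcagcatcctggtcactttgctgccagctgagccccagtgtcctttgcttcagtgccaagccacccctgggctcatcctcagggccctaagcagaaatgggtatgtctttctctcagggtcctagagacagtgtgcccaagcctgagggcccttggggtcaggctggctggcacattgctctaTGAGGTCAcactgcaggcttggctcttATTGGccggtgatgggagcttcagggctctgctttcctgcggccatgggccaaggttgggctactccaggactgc

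The Tex101 window held 4 copies of CCAAT, beginning at -144, -127, -96 and -65 relative to the start, the first of them on the opposite strand. Of the 32817 promoter windows of all genes, 347 (1.06%) held at least as many copies, and 37.4% held at least 1. The copies were noticed on reading this window, so the share is a description. Among the 8 windows of the 10 genes CCAAT was found in 6, TGACG in 2 and TGAGGTCA in 2, beside 37.4%, 20.8% and 2.17% of all windows. Calr3 and Ace entered with 2 windows each, and an excess over all windows was not tested, so these counts too are a description. TGAGGTCA began at -220 from the start of Calr3 and at -52 from the testis start of Ace, and the window at the upstream, somatic start of Ace held none of the motifs in capitals. CNCCTCAG, also searched, was found in 0 of the 8 windows and in 7.94% of all windows. CAACNG and TAACNG, 2 forms of the sequence that MYB factors bind, which are not in capitals, were found in 5 and 0 of the 8 windows, beside 35.0% and 23.3% of all. A match to these letters is not a site shown to be bound, and the letters of TGACG and TGAGGTCA can overlap other motifs.

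On build GRCm38, Tex101 lies at chr7:24668007-24676675 on the minus strand, and the start of its RefSeq window lies inside that span. Tex101 and Clgn (chr8:83389867-83428552) overlap no other annotated gene. Ly6k (chr15:74796874-74799986) overlaps the antisense gene Gm17189, Dpep3 (chr8:105973513-105979429) the lincRNA Gm45752 on the opposite strand, and Ace (chr11:105967945-105989964) the antisense gene Gm11651. Adam1a (chr5:121518576-121545482) overlaps Mapkapk5, Gm42878 and Gm15547 on its own strand and Tmem116 on the other. Adam2 overlaps Gm10233, and Adam3 overlaps Gm26208 and Gm45528, all on the opposite strand. Calr3 overlaps Gm3835 on its own strand. Pdilt overlaps Gm26967 on its own strand and Gm37518 and Acsm5 on the other. These are overlaps of whole gene spans, and whether exons overlap was not looked at. The sources do not state that strand was used in counting, so how reads of any shared bases were assigned is not known. The Ace value joins the somatic transcript, which starts at 105967945, and the testis transcript, which starts at 105975208.

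Tex101 was abundant in every sample without busulfan and barely present in every sample with it. FPKM, the unit used here, is a read number divided by gene length and by library size, so levels of different genes can be set side by side. Tex101 FPKM was 99.93, 103.36 and 87.94 in A0, 111.25, 100.47 and 90.54 in A10, and 97.41, 114.38 and 126.0 in A50. After busulfan it was 1.05, 0.96 and 0.62 in B0, 0.99, 0.92 and 1.49 in BA10, and 1.71, 1.67 and 1.73 in BA50. The highest of the 9 busulfan samples (1.73) lay far under the lowest of the 9 samples without busulfan (87.9).

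The group means of Tex101 were 97.08 ± 8.10 FPKM in A0 and 0.877 ± 0.227 in B0 (SD, n = 3 each), 111-fold lower. The ratio was 88.9-fold between A10 and BA10 and 66.1-fold between A50 and BA50. On the scale used for fitting, log2(FPKM + 1), the change was -5.71 (SE 0.13), -5.58 (SE 0.13) and -5.39 (SE 0.13). Adding 1 FPKM understates the change of a gene this low: with 0.1 FPKM added instead the values were -6.66, -6.38 and -5.96. With 1 FPKM added, Tex101 had the lowest value of the 15790 genes tested in each of these comparisons. It was picked for this fall, so the rank is a description. Stra8, which starts the meiotic programme, came next on this scale at -4.68 (SE 0.20) in B0 against A0. Its FPKM was 25.3 ± 6.05 in A0 and 0.00667 ± 0.0115 in B0. That ratio exceeds the ratio of Tex101, though the B0 values of Stra8 lay close to 0. Mov10l1, a helicase of piRNA production, followed at -3.76. Then came Hormad1, a protein of the meiotic chromosome axis, at -3.73, and Dazl, a germ cell RNA-binding protein, at -3.52.

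The other 9 genes stayed within 2.51-fold of their A0 level. Ly6k, the partner of Tex101 in ADAM3 maturation, had 82.82, 77.6 and 58.17 FPKM in A0 and 46.3, 47.26 and 36.44 in B0. The ranges did not overlap, and the log2 change was -0.73 (SE 0.23), 1.68-fold lower. Dpep3 had 77.32, 57.57 and 70.3 FPKM in A0 and 29.88, 32.62 and 19.21 in B0, a log2 change of -1.32 (SE 0.24) and 2.51-fold lower, the largest fall among the other 9. Tex101 and Ly6k, alike in level without busulfan, were far apart with it. For every 100 FPKM of Ly6k in the same sample there were 79.4 to 160 FPKM of Tex101 (median 132) in the 9 samples without busulfan and 1.70 to 3.99 (median 2.27) in the 9 with busulfan.

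Adam2, the beta subunit of fertilin, and the chaperone Clgn were about 2.0-fold lower in B0. Adam2 had 54.12, 36.18 and 55.4 FPKM in A0 and 22.94, 33.62 and 16.47 in B0, a log2 change of -1.0 (SE 0.26). Clgn had 80.97, 53.52 and 82.96 FPKM in A0 and 36.38, 50.49 and 24.35 in B0, a log2 change of -0.98 (SE 0.26). In both genes the highest B0 sample, replicate 2, came within a few FPKM of the lowest A0 sample, also replicate 2, without overlapping it. Adam3, the most abundant of the 10 genes, had 193.01, 123.91 and 160.79 FPKM in A0 and 127.99, 148.63 and 83.81 in B0. Its groups overlapped, and its log2 change was -0.42 (SE 0.27).

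**Figure D1:**
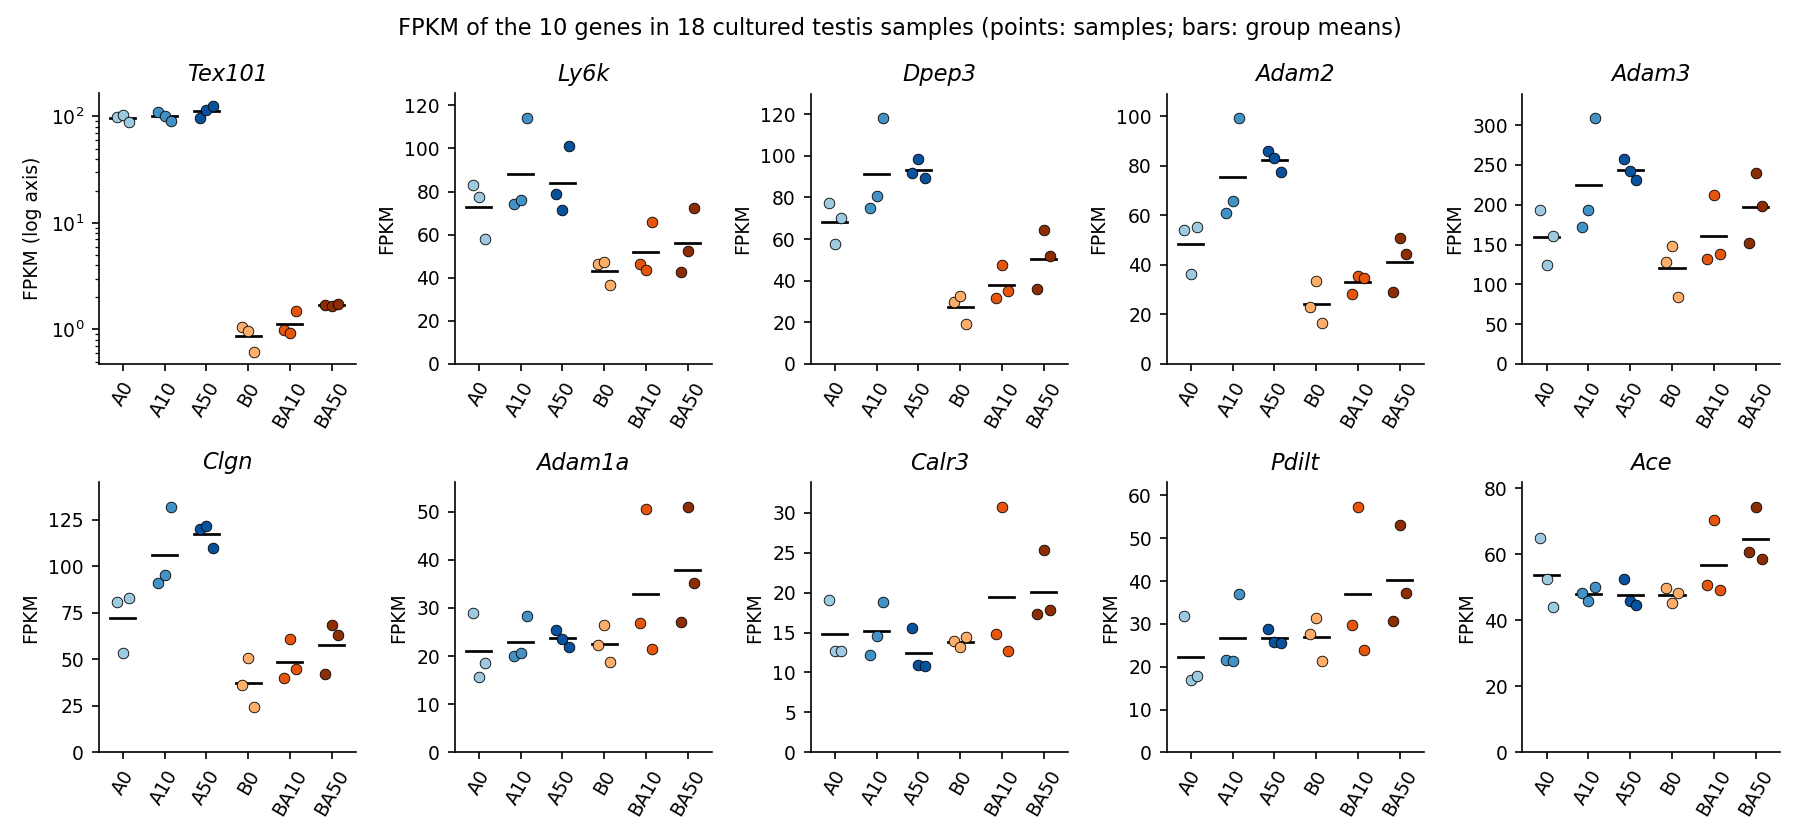
FPKM (vertical axes; log axis for Tex101, linear from 0 for the others) of the 10 genes in the 6 groups (horizontal axes); points are the 3 samples of a group and bars their mean. Tex101 lay between 87.9 and 126 FPKM without busulfan and between 0.62 and 1.73 with it, while the other 9 genes stayed within the same order of magnitude.

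Adam1a, Calr3, Pdilt and Ace had nearly the same level in A0 and B0. Adam1a, the fertilin alpha form that stays in the endoplasmic reticulum, averaged 21.05 ± 7.0 FPKM in A0 and 22.48 ± 3.87 in B0 (SD, n = 3). Calr3 averaged 14.81 ± 3.72 and 13.86 ± 0.616 FPKM, and Pdilt, a testis protein disulfide isomerase homolog, 22.20 ± 8.36 and 26.82 ± 5.03 FPKM (SD, n = 3). Ace averaged 53.84 ± 10.5 FPKM in A0 and 47.73 ± 2.38 in B0. The log2 changes lay between -0.15 and 0.30 with SE from 0.15 to 0.32, and all 4 pairs of groups overlapped.

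Over the 10 genes, 5 had non-overlapping lower values in B0 than in A0 (Tex101, Ly6k, Dpep3, Adam2 and Clgn) and 0 had higher ones. Among all genes tested 22.7% were lower and 10.5% higher in this way. The same 5 were lower in BA10 than in A10, beside 20.2% of all genes, and 0 were higher, beside 11.0%. In BA50 against A50, 4 were lower (Tex101, Dpep3, Adam2 and Clgn, beside 25.7% of all genes) and 4 were higher (Adam1a, Calr3, Pdilt and Ace, beside 16.0%). The log2 changes of those 4 were 0.61, 0.65, 0.54 and 0.43. In the same comparison 10 of 10 late spermatid markers (median 0.93) and 5 of 10 round spermatid markers (median 0.50) were higher without overlap, and the part of these cells was not tested. These shares describe genes that were grouped around a gene known to fall, and nothing is read from them.

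The members therefore differed in their proportions within a sample. Clgn stood at 42.0 to 52.7 FPKM per 100 FPKM of Adam3 without busulfan and at 27.8 to 34.0 with it, and Adam2 at 28.0 to 35.2 and 16.8 to 25.2. Adam1a ran the other way, from 9.19 to 15 per 100 of Adam3 without busulfan and from 15.5 to 23.7 with it. Pdilt stood at 21.0 to 39.3 per 100 of Clgn without busulfan and at 53.4 to 94.5 with it. None of these 4 ratios overlapped between the 9 samples without and the 9 with busulfan. Neither did Pdilt per 100 of Adam3 (10.6 to 16.5 without busulfan, 17.3 to 27.0 with it) or Calr3 per 100 of Clgn (9.01 to 23.6 and 26.2 to 59.4). The share of all gene pairs that separate in this way was not looked at, so these ratios are a description. Other ratios did overlap: Ly6k stood at 29.5 to 62.6 per 100 of Adam3 without busulfan and at 20.5 to 47.5 with it, and Calr3 at 4.54 to 10.2 and 8.9 to 17.3. Among the ADAM genes, Adam2 was thus lower and Adam1a higher relative to Adam3, and among the chaperones Clgn was lower relative to Pdilt.

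**Figure D2:**
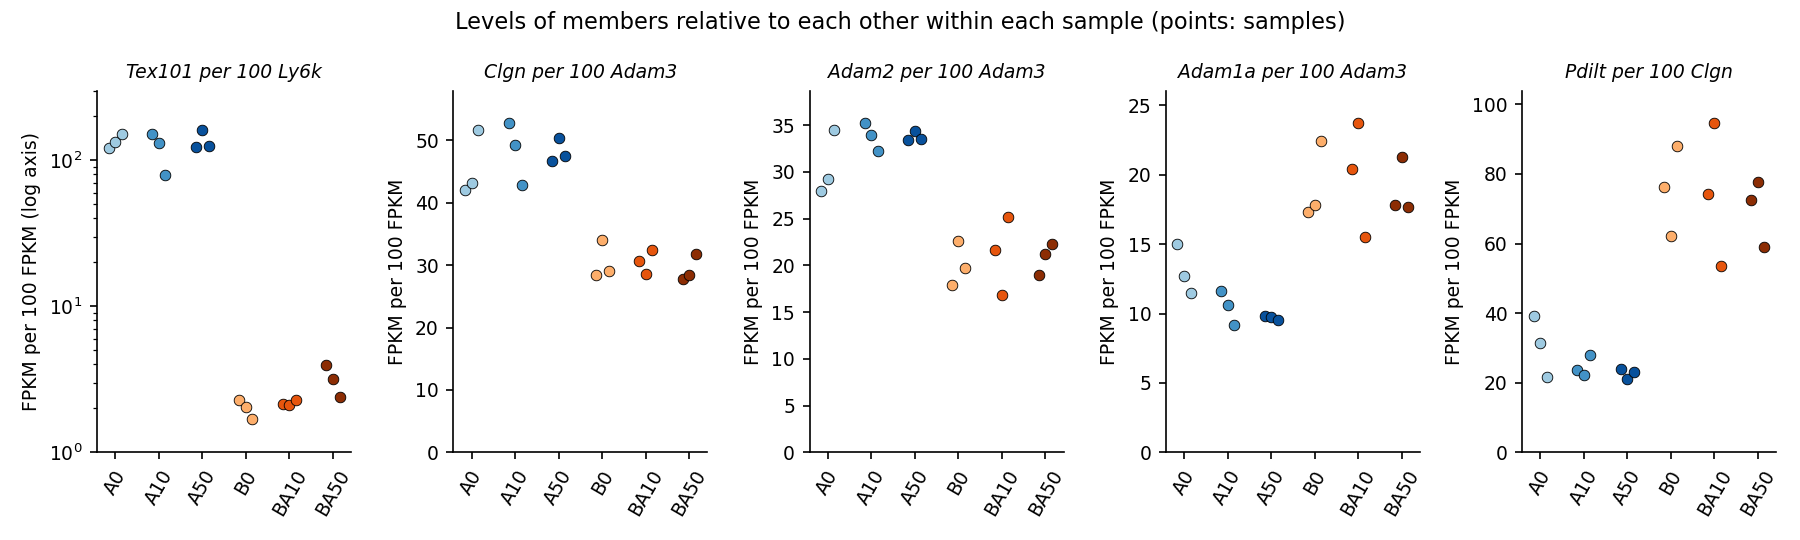
FPKM of 1 member per 100 FPKM of another in the same sample (vertical axes; log axis in the first panel) for the 6 groups; points are samples. Tex101 per 100 Ly6k was 79.4 to 160 without busulfan and 1.70 to 3.99 with it, Clgn and Adam2 per 100 Adam3 were lower with busulfan, and Adam1a per 100 Adam3 and Pdilt per 100 Clgn were higher.

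Markers of successive germ cell stages were set beside the members, since in whole tissue fewer cells of a type and less RNA per cell cannot be told apart. A gene outside the 10 was called when limma put its adjusted p at 0.001 or less and its log2 change at 1 or more in either direction, and in B0 against A0 2.49% of all genes tested were called lower and 0.0507% higher. Of the early spermatocyte markers 6 of 10 were called lower, with a median log2 change of -2.02. They included Hormad1 (50.6 ± 4.98 FPKM in A0, 2.97 ± 1.15 in B0, log2 change -3.73, SE 0.21, adjusted p = 1.75e-08) and Sycp3, a component of the synaptonemal complex (113 ± 3.54 and 10.8 ± 2.23 FPKM, -3.28, SE 0.17, adjusted p = 9.13e-09). Of the spermatogonium markers 5 of 9 tested were called lower with a median of -1.08, among them Stra8 and Dmrt1 (-2.62, SE 0.17, adjusted p = 8.88e-08).

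The lists of later stages held fewer called genes. Of the late spermatocyte markers 1 of 10 was called lower, Piwil1 of the piRNA pathway (16.3 ± 6.59 and 0.867 ± 0.379 FPKM, -3.15, SE 0.23, adjusted p = 2.22e-07), and the list median was -0.71. At an unadjusted p under 0.05, 6 of these 10 were lower, beside 19.3% of all genes, and 3 were lower at an adjusted p under 0.05. Of the round spermatid and the late spermatid markers 0 of 10 were called in either direction, with medians of 0.21 and -0.09 beside -0.04 for all genes tested, and limma gave 1 and 0 of them an unadjusted p under 0.05. The protamine gene Prm1, for example, had 930 ± 263 FPKM in A0 and 851 ± 206 in B0. The changes of Dpep3, Adam2, Clgn and Ly6k thus lay between the early and late spermatocyte medians, Ly6k only just (-0.73, SE 0.23, beside -0.71). Those of Adam1a, Calr3 and Ace lay near the spermatid medians. Adam3 (-0.42) lay between the late spermatocyte and spermatid medians, and Pdilt (0.30) above both spermatid medians. Single markers spread widely: from -3.73 to -0.03 in the early spermatocyte list, -3.15 to 0.24 in the late spermatocyte list and -0.88 to 0.39 in the round spermatid list. A place between medians therefore assigns no stage to a member. On the log2(FPKM + 1) scale Tex101 fell by more than any marker of the stage lists. By the ratio of FPKM means Stra8 fell by more (25.3 in A0, 0.00667 in B0).

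**Figure D3:**
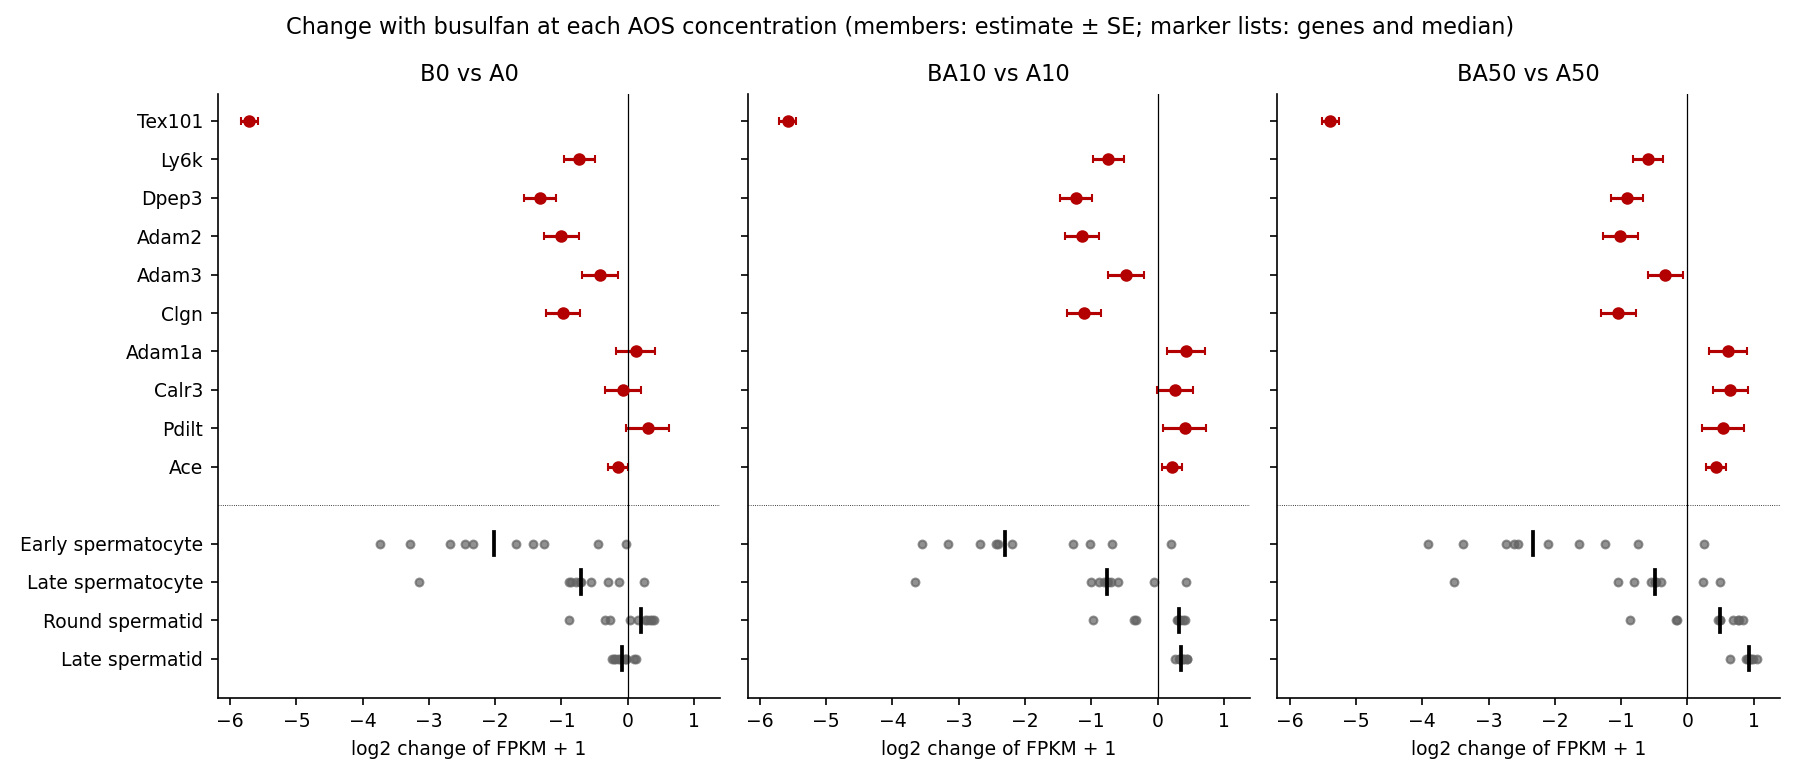
Change of log2(FPKM + 1) with busulfan (horizontal axes) at 0, 10 and 50 μg/mL AOS; red points with bars are the members' estimates ± SE, grey points are single stage marker genes and black bars list medians. Tex101 lies at -5.71, -5.58 and -5.39, the early spermatocyte median is -2.02 in B0 against A0, and the round and late spermatid medians are 0.21 and -0.09.

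Somatic and foreign tissue markers were also read. Sertoli markers summed to 1127 to 5337 FPKM over the 18 samples, 0 of 9 tested were called in B0 against A0, and 0 of 7 tested Leydig, 0 of 6 myoid, 0 of 6 macrophage and 0 of 6 endothelial markers were called there, with 0, 1, 0, 0 and 5 of them at an unadjusted p under 0.05. B0 differed from all other groups in the sums of fat, simple epithelium and endothelial markers. Fat markers summed to 37.21 to 238.1 FPKM in B0 and 3.03 to 15.76 in the other 15 samples, and epithelium markers to 79.37 to 203.1 and 17.01 to 46.57. Endothelial markers summed to 96.7 to 107.4 FPKM in B0 and 37.01 to 89.3 in the other 15 samples. In B0 against A0, 6 of 6 endothelial markers were higher without overlap, beside 10.5% of all genes. The epithelium marker Epcam was not higher (22.8 ± 2.92 FPKM in A0, 19.7 ± 7.56 in B0). In B0 against A0, 3 of 5 tested fat markers (Cfd, the complement protease adipsin, at 4.83, adjusted p = 0.000126) and 3 of 5 epithelium markers (Krt7, a keratin, at 3.14, adjusted p = 4.39e-05) were called higher. Epididymis markers summed to 39.66 FPKM in B0 replicate 2 and to 0.78 to 4.84 in the other 17 samples. The part of these tissues in the members' B0 values was not tested.

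Tex101 sits in a chromosome 7 cluster of genes of the Ly6/uPAR family, whose proteins share a cysteine-rich domain with TEX101 and LY6K. Of the 21 genes in the table with a midpoint within 250 kb of that of Tex101, 16 were tested in B0 against A0 and 4 were called lower, beside 2.49% of all genes. The 3 nearest on 1 side were among them: Gm1096 at 21.5 kb (3.61 ± 1.11 FPKM in A0, 0.423 ± 0.0569 in B0, -1.67, SE 0.20, adjusted p = 4.39e-05), Lypd10 at 41.8 kb (11.3 ± 3.23 and 0.727 ± 0.352 FPKM, -2.82, SE 0.21, adjusted p = 3.16e-07) and Lypd11 at 50.9 kb (10.7 ± 2.02 and 1.00 ± 0.415 FPKM, -2.55, SE 0.17, adjusted p = 8.52e-08). The fourth was Dmrtc2 at 203.7 kb (-1.71, SE 0.21, adjusted p = 5.67e-05). Lypd4, also a testis Ly6/uPAR gene, lay next to Dmrtc2 and was not called (178 ± 40.2 and 138 ± 38.6 FPKM, -0.38, SE 0.28, adjusted p = 0.475).

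On the other side of Tex101 0 genes were called. The nearest tested was Phldb3 at -50.2 kb (0.43, SE 0.26, adjusted p = 0.351), and Xrcc1, a DNA repair gene at -110.0 kb, had the lowest adjusted p (24.8 ± 1.77 and 16.8 ± 0.817 FPKM, -0.54, SE 0.12, adjusted p = 0.00779). The median change of the 16 neighbours was -0.10. Lypd10 and Lypd11 are relatives in 1 cluster, so their reads could be shared. The processing notes name RSEM, which divides shared reads by a model, while the methods name SOAPaligner, and which of them made the table is not settled here. Of the 5 testis Ly6/uPAR genes listed beside Tex101 and Ly6k, 2 were called lower (Lypd10 and Lypd11) and Lypd4, Lypd9 (-0.35, SE 0.28) and Spaca4 were not.

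**Figure D4:**
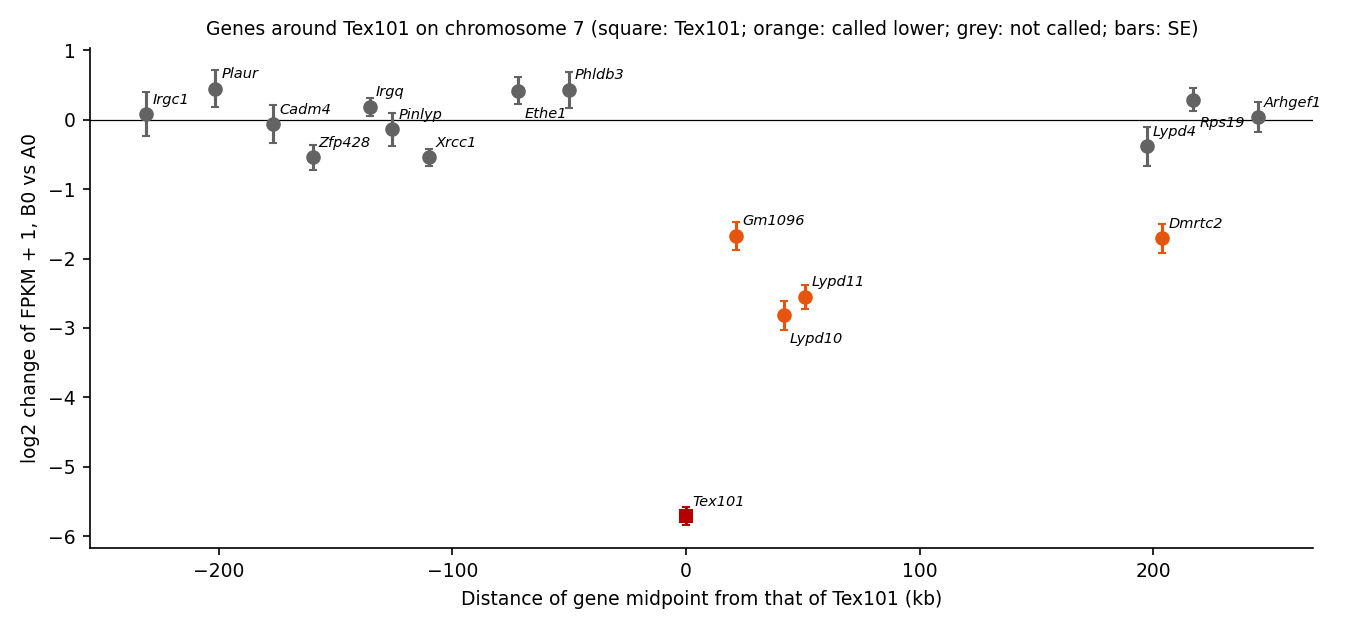
Change of log2(FPKM + 1) in B0 against A0 (vertical axis, bars are SE) of the tested genes within 250 kb of Tex101, by distance between gene midpoints in kb (horizontal axis). Gm1096, Lypd10, Lypd11 and Dmrtc2 (orange) were called lower, between -1.67 and -2.82, and Tex101 (square) lies at -5.71.

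Other genes that ADAM3 on sperm needs and the other testis ADAM genes numbered 25 different names, 24 of which were tested. In B0 against A0 0 were called lower. At an unadjusted p under 0.05 3 were lower (19.3% of all genes) and 1 higher (5.57%). At an adjusted p under 0.05 1 was lower (12.3% of all genes), Adam1b, which encodes the fertilin alpha found on the sperm surface (16.1 ± 2.74 FPKM in A0, 7.85 ± 3.95 in B0, -1.03, SE 0.26, adjusted p = 0.0155). Adam2, its partner, had a log2 change of -1.0 and Adam1a had a log2 change of 0.12 (SE 0.29). The abundant testis gene Adam5 had 176 ± 47.1 and 119 ± 33.7 FPKM (-0.56, SE 0.27, adjusted p = 0.221), Adam32 127 ± 22.8 and 91.3 ± 27.0 (-0.50, SE 0.26, adjusted p = 0.264), and Cmtm2a, which with Cmtm2b is needed for ADAM3 on sperm, 280 ± 65.9 and 235 ± 65.0 (-0.26, SE 0.28, adjusted p = 0.657).

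In BA50 against A50 1 of the 24 was called lower, Rnase10, a gene known from the epididymis (2.47 FPKM in A50 and 0.297 in BA50, -1.40, adjusted p = 0.000577), beside 3.36% of all genes called lower. The call was lost in 5 of the other settings and when any of 5 of the 6 samples was left out. In BA10 against A10 0 were called lower, beside 3.0% of all genes, and at an unadjusted p under 0.05 6 were lower (20.7% of all genes) and 2 higher (12.2%).

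General folding genes of the endoplasmic reticulum and the GPI anchor pathway, which the members' products use, were followed as fixed lists. In B0 against A0 0 of 12 folding genes and 0 of 26 GPI genes were called in either direction, with medians of -0.14 and -0.05 beside -0.04 for all genes, and 3 and 2 of them had an unadjusted p under 0.05. Sdf2l1, an endoplasmic reticulum chaperone cofactor, had 25.1 ± 2.19 FPKM in A0 and 14.2 ± 3.47 in B0 (-0.80, SE 0.16, adjusted p = 0.00262), and Pigo, an enzyme of GPI synthesis, 7.39 ± 0.66 and 5.16 ± 0.171 (-0.44, SE 0.09, adjusted p = 0.00365). In BA10 against A10 1 of 12 folding genes was called lower, Sdf2l1 (-1.0, adjusted p = 0.000317). There 10 of the 12 were lower without overlap (20.2% of all genes), 7 were lower at an unadjusted p under 0.05 (20.7%), and the median was -0.35 beside 0.03 for all genes. In BA50 against A50 the median was again -0.35, and 6 of the 12 were lower without overlap (25.7% of all genes). Of 10 widely expressed ADAM genes 0 were called in B0 against A0, with a median of 0.04. Of 3 tested relatives of Dpep3 and Ace 0 were called, and Ace3 had 10.4 ± 3.59 and 12.3 ± 3.10 FPKM.

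The AOS comparisons asked whether AOS altered the 10 genes in testes without busulfan and in testes after it. Limma called 0 of the 10 genes in each of the 4 comparisons and 0 reached an adjusted p under 0.05. Of all genes 0.0% were called in each, and 0.0253% in BA10 and 0.095% in BA50 reached an adjusted p under 0.05. At an unadjusted p under 0.05 there were 1 of the 10 in A10 against A0 (beside 15.2% of all genes), 3 in A50 (15.6%), 0 in BA10 against B0 (5.05%) and 7 in BA50 (24.3%). Comparisons with A0 share its 3 samples, and comparisons with B0 share its 3 samples. Tex101 was picked on samples both without and with busulfan. Its p-values in these comparisons, and in the difference of changes below, are therefore not independent of that choice. Single genes were tested as well with exact two-sided permutation tests, for which 3 samples against 3 cannot give a p under 0.1.

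In testes after busulfan all 10 genes had higher means with 50 μg/mL AOS. The log2 changes of BA50 against B0 ran from 0.34 to 0.86 with a median of 0.60, and the median of all genes tested was -0.04. Values did not overlap for 6 of the 10 (Tex101, Dpep3, Adam1a, Adam3, Calr3 and Ace), beside 11.2% of all genes not overlapping and higher. Tex101 went from 0.877 ± 0.227 to 1.70 ± 0.0306 FPKM (SD, n = 3), a ratio of 1.94 and a log2 change of 0.53 (SE 0.13, adjusted p = 0.101, exact p = 0.1). With 0.1 FPKM added in place of 1 the log2 change was 0.91 (adjusted p = 0.0718). All 3 BA50 samples lay above all 3 B0 samples and none exceeded 1.73 FPKM, against at least 97.4 in A50. Dpep3 had 35.85, 64.23 and 51.71 FPKM in BA50 against 32.62 at most in B0, a log2 change of 0.86 (SE 0.24, adjusted p = 0.104, exact p = 0.1).

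Adam3 had 152.22, 240.08 and 198.45 FPKM in BA50, all above the highest B0 sample at 148.63, with a log2 change of 0.72 (SE 0.27, adjusted p = 0.137). Adam2 changed by 0.76 (SE 0.26, adjusted p = 0.125) and Clgn by 0.66 (SE 0.26, adjusted p = 0.153), each with an overlap of the groups. Ace had 60.8, 74.42 and 58.43 FPKM in BA50 and 49.75, 45.1 and 48.34 in B0 (0.42, SE 0.15, adjusted p = 0.133). The smallest change was that of Ly6k (0.34, SE 0.23, adjusted p = 0.357). Calr3 changed by 0.49 (SE 0.27, adjusted p = 0.277), Pdilt by 0.55 (SE 0.32, adjusted p = 0.291) and Adam1a by 0.69 (SE 0.29, adjusted p = 0.176). With 1 of the 6 samples left out in turn the Tex101 change ran from 0.43 to 0.60, and the changes of all 10 genes kept their sign.

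Stage and somatic markers were set beside these values. In BA50 against B0 late spermatid markers had a median log2 change of 1.13, 10 of 10 did not overlap and were higher, and 0 were called (Prm2 at 1.56, adjusted p = 0.101). Round spermatid and late spermatocyte markers each had a median of 0.73 early spermatocyte markers 0.18 and spermatogonium markers -0.09, and 0 markers of any stage list were called. Fat, epithelium, endothelial and macrophage markers had medians of -2.57, -2.84, -0.74 and -0.66, with 0 called and 3 fat and 3 epithelium markers lower at an adjusted p under 0.05. The part of these markers in the members' values was not tested. Per 100 FPKM of Ly6k in the same sample, Tex101 stood at 2.27, 2.03 and 1.70 in B0 and at 3.99, 3.17 and 2.38 in BA50, which do not overlap. Per 100 FPKM of Adam3 it stood at 0.82, 0.646 and 0.74 in B0 and at 1.12, 0.696 and 0.872 in BA50, which do overlap. Whether Tex101 changed more than the other members was not tested.

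With 10 μg/mL AOS after busulfan the 10 genes again had higher means than B0, by 0.18 to 0.48 on the log2 scale with a median of 0.40, beside -0.03 for all genes, but values overlapped in all 10 (11.4% of all genes did not overlap). The adjusted p was at least 0.749 for each. Several of these changes rested on single samples. Without BA10 replicate 2 they were -0.01 for Calr3 (from 0.36, SE 0.27), 0.01 for Pdilt (from 0.37), 0.06 for Ace (from 0.23) and 0.10 for Adam1a (from 0.45). Without BA10 replicate 3 those of Ly6k and Tex101 were 0.07 each, from 0.24 and 0.18.

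In testes without busulfan Adam2, Clgn and Adam3 had the largest changes with AOS among the 10 genes. Adam2 averaged 48.57 ± 10.7 FPKM in A0, 75.34 ± 20.9 in A10 and 82.31 ± 4.49 in A50 (SD, n = 3). The log2 change was 0.61 (SE 0.26, adjusted p = 0.322, exact p = 0.1) in A10 and 0.77 (SE 0.26, adjusted p = 0.229, exact p = 0.1) in A50. Clgn averaged 72.48 ± 16.5, 106.2 ± 22.6 and 117.3 ± 6.63 FPKM, with log2 changes of 0.55 (SE 0.26, adjusted p = 0.328) and 0.71 (SE 0.26, adjusted p = 0.255). Adam3 averaged 159.2 ± 34.6, 225.0 ± 73.4 and 243.7 ± 13.4 FPKM, and its changes were 0.47 (SE 0.27, adjusted p = 0.364) and 0.63 (SE 0.27, adjusted p = 0.291).

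Tex101 changed by 0.05 (SE 0.13, adjusted p = 0.836) in A10 and 0.21 (SE 0.13, adjusted p = 0.397) in A50. Ace had log2 changes of -0.15 and -0.16 (SE 0.15 each) and Calr3 of 0.04 and -0.23 (SE 0.27 each). In A10 2 of the 10 genes did not overlap and were higher (Adam2 and Clgn), beside 7.81% of all genes. In A50 there were 4 (Dpep3, Adam2, Adam3 and Clgn), beside 17.6%. Late spermatocyte markers had a median of 0.60 in A50 against A0 with 7 of 10 not overlapping and higher. Sertoli markers summed to 3216 to 4460 FPKM in A0, 1127 to 2902 in A10 and 2530 to 3414 in A50. The 1127 was that of A10 replicate 3, and the other A10 samples had 2902 and 2546. The median change of Sertoli markers was -0.77 in A10 and -0.27 in A50. At an unadjusted p under 0.05, 6 of 9 tested were lower in A10, beside 1693 of all 15790 genes, and 1 of 9 in A50, beside 916. In A50 4 of 9 were lower without overlap, for which the share of all genes is not given here. Endothelial and macrophage markers had medians of -0.18 and -0.48 in A10 and -0.30 and -0.45 in A50. None of these markers was called, and their part in the members' values was not tested.

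**Figure D5:**
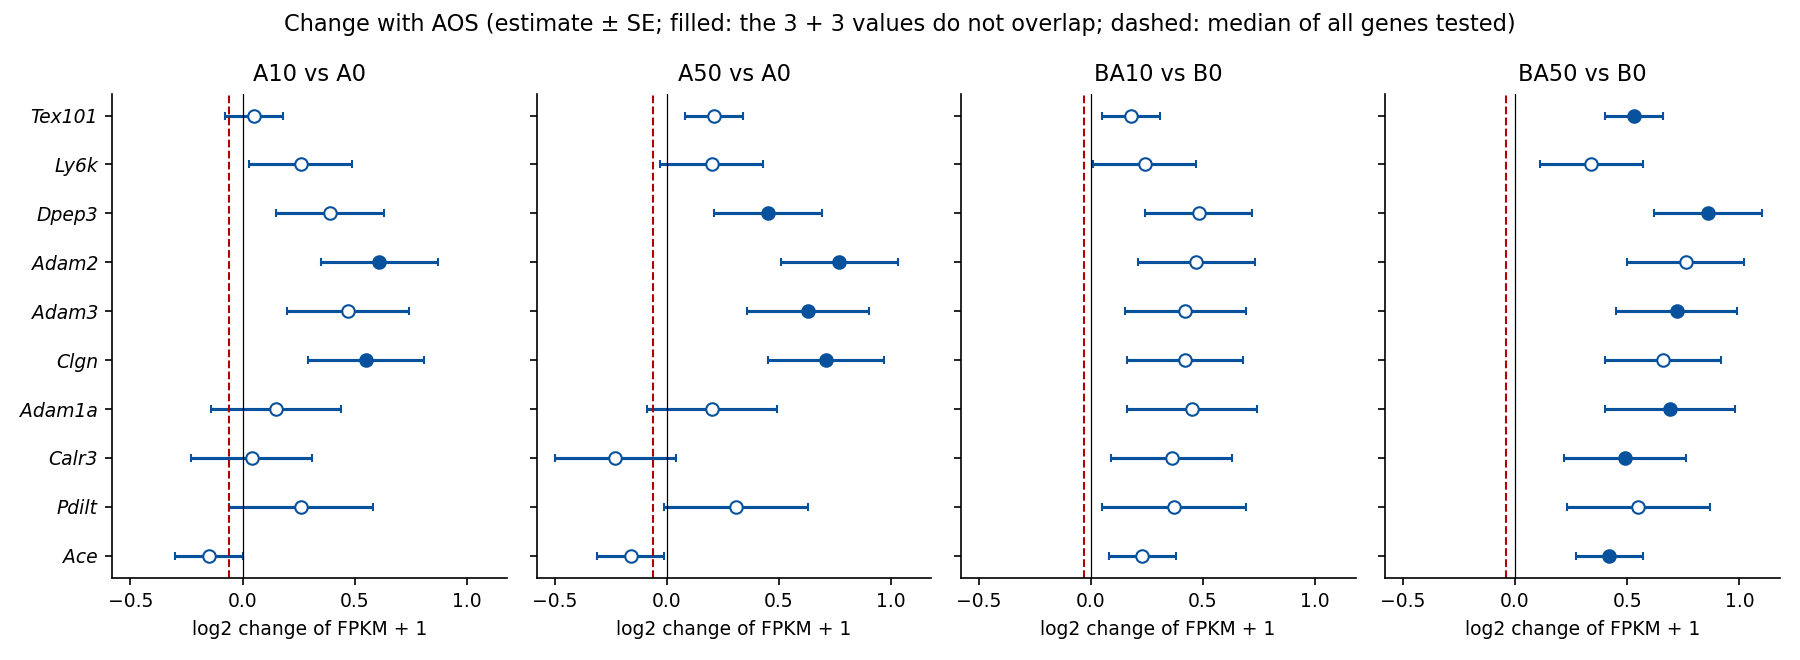
Change of log2(FPKM + 1) with AOS (horizontal axes, estimate ± SE) for the 10 genes in the 4 AOS comparisons; filled points mark genes whose 3 and 3 values do not overlap and the dashed line the median of all genes tested. In BA50 against B0 all 10 estimates lie between 0.34 and 0.86 and 6 points are filled, and 0 genes were called in any panel.

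Whether AOS acted differently with and without busulfan was tested directly as a difference of the changes. Limma called 0 of the 10 genes for 10 or 50 μg/mL, beside 0.0% of all genes. At an unadjusted p under 0.05 there were 0 of the 10 at 10 μg/mL, beside 3.97% of all genes, and 1 at 50 μg/mL, beside 6.28%. The smallest adjusted p was that of Ace at 50 μg/mL, where the change with busulfan exceeded that without by 0.58 (SE 0.21, adjusted p = 0.688). For Calr3 the difference was 0.72 (SE 0.39, adjusted p = 0.864) and for Tex101 0.33 (SE 0.18, adjusted p = 0.874).

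Ordered by group mean, Tex101 ran B0, BA10, BA50, A0, A10 and A50. Only BA10 and BA50, and BA50 and A0, were neighbours with values that did not overlap. Ly6k, Dpep3, Adam2 and Clgn had the same lower 3 groups in the same order, with B0 lowest and neighbours overlapping among the 3. Adam1a, Calr3, Pdilt and Ace had their highest means in BA50 (37.77 ± 12.2, 20.12 ± 4.49, 40.26 ± 11.5 and 64.55 ± 8.63 FPKM), and all neighbouring groups in their orders overlapped. For Adam1a, Calr3 and Pdilt, BA10 came next below BA50 with 1 high sample, replicate 2, at 50.44, 30.76 and 57.37 FPKM.

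Single samples were high or low for many members at once. Of the 9 samples without busulfan A10 replicate 3 was highest for 6 members and A0 replicate 2 lowest for 6. Of the 9 with busulfan BA50 replicate 2 was highest for 6 and B0 replicate 3 lowest for 8. The summed round spermatid markers were also highest in A10 replicate 3 (767.3 FPKM) without busulfan and in BA50 replicate 2 (862.3 FPKM) with it, and lowest in A0 replicate 2 (304.6) and B0 replicate 3 (305.7). Late spermatocyte sums had the same extreme samples, and other stage lists did not. Late spermatid sums were lowest in A10 replicate 1 (3015) and B0 replicate 1 (3074). Early spermatocyte sums were highest in A50 replicate 1 (383.0) and BA10 replicate 2 (106.1). Without busulfan, spermatogonium sums were highest in A0 replicate 2 (185.8) and lowest in A10 replicate 3 (98.0). A10 replicate 3 also had the lowest Pearson's r to another sample of its group across genes, 0.962, and without it the A10 changes of Adam2 and Adam3 were 0.40 and 0.22 instead of 0.61 and 0.47.

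Within the 9 samples of each kind the members other than Tex101 and Ly6k were read as a pair of sets, drawn up after their values were seen. Pearson's r on the log2 scale was 0.95 to 1.00 among Adam2, Adam3, Clgn and Dpep3 without busulfan and 0.93 to 0.99 with it. Among Adam1a, Calr3, Pdilt and Ace it was 0.42 to 0.97 and 0.87 to 0.99. Between the sets it was -0.29 to 0.86 without busulfan and 0.50 to 0.92 with it, so the sets were not separate from each other. Tex101 had r from -0.66 to 0.20 against the other 9 genes without busulfan. With busulfan its r was 0.62 to 0.72 with Dpep3, Adam2, Adam3 and Clgn, 0.70 with Ly6k, and 0.17 to 0.46 with Adam1a, Calr3, Pdilt and Ace. The points include the 3 AOS concentrations and share each sample's library and germ cell makeup. The 5 genes outside the group most like Tex101, by the smaller of the r values over 9 samples without and 9 with busulfan, were Gosr1 (0.822), Dhx8 (0.741), Mov10l1 (0.737), Gpat2 (0.729) and a gene model of the sequencing provider with no symbol (0.71). Gosr1 and Dhx8 had nearly equal means without and with busulfan (21.6 and 20.5, 16.8 and 16.2 FPKM), whereas Mov10l1 went from 19.6 to 0.497 and Gpat2 from 10.6 to 0.974 FPKM. These 5 were the highest among all tested genes outside the group, and how high r runs by chance in such a search was not tested. The r with busulfan rests on Tex101 values of 0.62 to 1.73 FPKM, so the list is a description.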

How the data were processed

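Per the labels, poly(A) RNA-seq libraries of 18 cultured mouse testis samples fell into 6 groups of 3. The authors deposited 1 table of FPKM values per gene, with 2 decimals. The paper names SOAPaligner and RPKM, the submitters' processing notes name HISAT, Bowtie2, RSEM and GRCm38.p5, and the column headers say FPKM. Read depth is unknown: in 85 low genes 20.5% of 629 ratios between samples lay within 0.1 of a whole number, where chance gives 20%. FPKM summed to 463970 to 511274 per sample, and Pearson's r between samples of a group was 0.962 to 0.993.

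The 10 genes, the gene lists and the tests were chosen with earlier results of these data known. The 15790 genes that reached 1 FPKM in 3 or more samples, all 10 members included, were fitted as log2(FPKM + 1) with limma 3.58.1 in R 4.3.3 (eBayes with trend, 1 coefficient per group, all samples, 12 residual and 2.56 prior degrees of freedom). Benjamini-Hochberg adjustment covered all genes tested. Besides the 10, up to 4 genes a list were named: the 2 with the highest mean and the 2 with the largest change in B0 against A0. Genes near Tex101, its next lower genes and those called alone were named after their values were seen.

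Replicate numbers come from the labels, which do not say what they mark. Of the comparisons, BA50 against B0 alone had r over 0.1 between the deviations of every same-numbered pair (0.56, 0.42 and 0.14; BA50 against A50 had 0.04, 0.20 and 0.13), so a fit of these groups with the number as a block was added after seeing the data. Promoters and neighbours are from RefSeq (GRCm38.p6) and positions from GENCODE (GRCm38). Tables were made with pandas 2.3.3 and SciPy 1.17.1 in Python 3.11.15, and figures with matplotlib 3.10.9.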

Additional observations from a re-analysis of the deposited data

How the results depend on the processing

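The alternatives were the replicate block, a pseudocount of 0.1 FPKM, quantile normalization, no filter, a filter at a mean of 5 FPKM, eBayes with no trend, only the groups compared, each replicate left out, and an adjusted p under 0.05. The count of called members stayed at 0 in the AOS comparisons and their differences under all of these. For BA50 against B0, the block with only these groups in the fit gave a Tex101 change of 0.53 with an adjusted p of 0.194, and the replicate block with all samples gave 0.123. Over all alternatives that adjusted p ran from 0.048 to 0.517, that of Dpep3 from 0.0371 to 0.527 and that of Adam2 from 0.0467 to 0.538. In A10 against A0, small changes turned sign: Tex101 was -0.03 with quantile normalization and -0.02 to 0.13 with single replicates left out, Adam1a -0.03 to 0.39 and Calr3 -0.12 to 0.22, and in BA10 against B0 Calr3 was -0.01 to 0.60. The other ADAM3 and testis ADAM genes called lower in BA50 against A50 numbered 0 with the replicate block, the pseudocount of 0.1, the higher mean, quantile normalization and only the groups compared, 3 at an adjusted p under 0.05, and 0 to 1 with replicates left out. In B0 against A0 they numbered 1, and in BA10 against A10 3, at an adjusted p under 0.05, and in B0 against A0 0 to 1 with replicates left out (1 without B0 replicate 2). The causes were not tested, apart from the higher mean, which removes Rnase10 from the genes tested. Without known read depth, low values such as those of Tex101 after busulfan carry no counting interval.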
